A study of Solanum lycopersicum with 6 samples.

Results

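Resting axillary buds, which sit at the base of leaves and can grow into side shoots, were taken from tomato (Solanum lycopersicum) plants at 25 days after germination, and their messenger RNA was sequenced. The comparison described here sets rSBP15 buds, 2 samples, against buds of the wild type MT, 2 samples. The genotype label rSBP15 is known from the study as a line that carries a form of the transcription factor gene SBP15 which the microRNA miR156 cannot cut, and its sample titles carry the letters OE. MT is the label of the cultivar in every sample and is known as Micro-Tom, a dwarf tomato with mutations in the brassinosteroid gene DWARF and the flowering gene SELF-PRUNING, which all groups therefore share. The remaining 2 of the 6 samples overexpress miR156, are called miR156-OE here and enter only through values set beside those of rSBP15. Each sample pooled around 20 buds of 4 to 5 plants, so that p-values measure the spread between such pools. The promoter of the transgene and the number of independent lines are not given in the sources used here.

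Each of 34075 gene IDs comes with a log fold change, to a base not stated, and a p-value, both computed by the authors. The comparison takes all genes with a log fold change other than 0, which are 25329 and are called detected. With no values of single libraries at hand, depth, expression levels and the order of single libraries are unknown. A standard error was recovered for each gene from its log fold change and its p-value. No file used here gives gene names, and genes are named from knowledge of published tomato locus IDs. RefSeq held 199 of the 308 names and could be used to check their chromosome and order. It put 8 of the 199 elsewhere, and these were dropped. The other 109 names, SBP15 and GOB among them, were not checked by any file, and single names may be wrong. In buds, less RNA per cell and fewer cells of a type cannot be told apart.

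miR156 is known across flowering plants to hold back SBP-box transcription factors, which promote the passage from juvenile to adult growth, flowering and, in several species, the arrest of side shoots. A bud in the leaf axil is laid down by boundary genes such as LATERAL SUPPRESSOR, BLIND and GOBLET and then rests or grows out. BRANCHED1 proteins, abscisic acid and strigolactones are known to hold it at rest, while cytokinin, gibberellin, sucrose supply and auxin export from the bud are known to go with outgrowth. Resting meristems are known for low levels of the B-type kinases and cyclins that drive mitosis.

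In rSBP15 buds 1414 of the 25329 detected genes passed an adjusted p of 0.05 (Benjamini-Hochberg over all detected genes, authors' limma-type p-values), which is 5.58%. Of these, 670 (2.65%) rose and 744 (2.94%) fell. At an unadjusted p under 0.05 there were 8435 genes (33.3%), 4336 higher (17.1%) and 4099 lower (16.2%). For miR156-OE against the same MT samples the adjusted threshold was passed by 5 genes (0.0201%) and the unadjusted one by 3301 (13.2%). The change of 15787 genes (62.3%) was so large beside its recovered standard error that the rSBP15 and MT libraries could not overlap, however the spread was divided between them. The number of calls depended on the treatment of the variances and was 3711 with the moderation refitted without genes at 0 (14.7%) and 43 with no moderation. With no moderation, the called genes of the lists described here had adjusted p-values above 0.05, except for the CYP707A gene and ANT1. With the deposited p-values, calls were most frequent among genes with a small spread. Of the 8443 genes with the smallest standard errors 11.1% were called, with a median size of the log fold change of 0.0209. Of the 8443 with the largest 0.687% were called, with a median size of 0.258. With the moderation refitted these shares were 14.1% and 9.46%, and 20.4% of the 8443 genes between them were called.

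**Figure D1:**
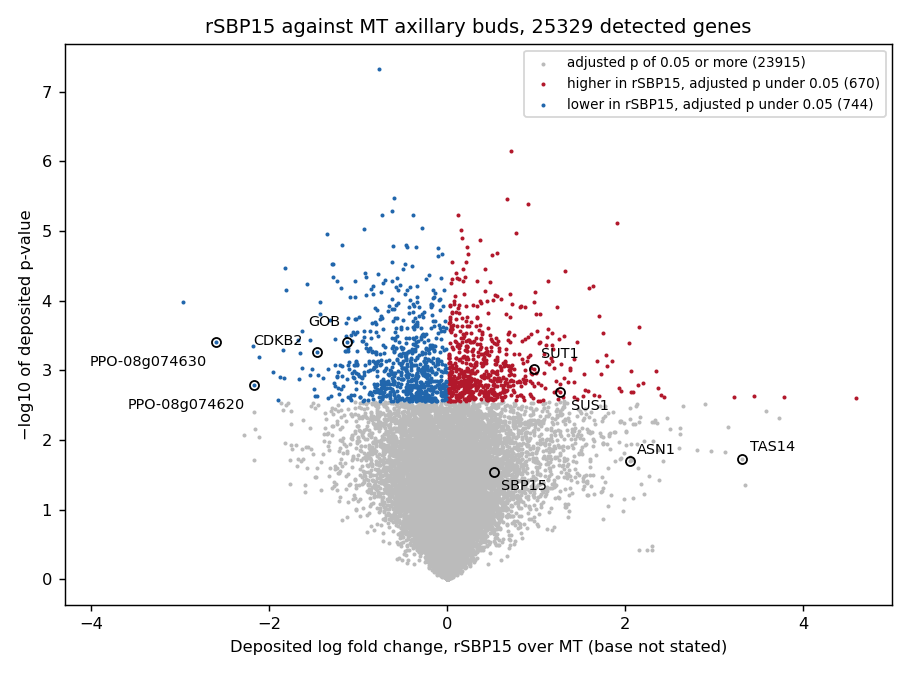
Each point is a detected gene, with the deposited log fold change of rSBP15 over MT on the horizontal axis (base not stated) and −log10 of the deposited p-value on the vertical axis. Red points mark the 670 genes that rose, blue points the 744 that fell and grey points the rest. Circles mark named genes, of which SBP15, ASN1 and TAS14 lie below the coloured points.

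Large differences lay mostly above 0. Of 75 detected genes with a size of at least 2 in the authors' deposited table, 65 (86.7%) were higher and 10 lower in rSBP15. All 10 genes with a size of at least 3 were higher. At a size of at least 1 there were 461 higher and 242 lower genes, and at a size of at least 0.1 there were 6446 higher and 6740 lower. The genes past the adjusted threshold showed the lean to rises only at the top, with 15 higher and 5 lower at a size of at least 2, against 78 higher and 97 lower at a size of at least 1. The median size was 0.348 among the genes that rose and 0.452 among those that fell, with median standard errors of 0.0170 and 0.0203.

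**Figure D2:**
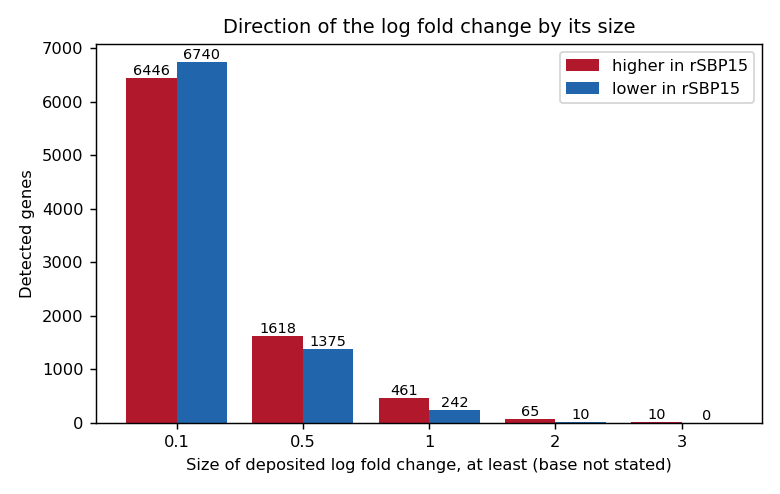
Bars count the detected genes that were higher (red, left) and lower (blue, right) in rSBP15 than in MT, at 5 lower limits for the size of the deposited log fold change (base not stated). Higher genes outnumber lower ones 461 to 242 at a size of at least 1 and 65 to 10 at a size of at least 2.

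SBP15 (Solyc10g078700.3), the targeted gene, was higher in rSBP15 but did not pass the threshold. In the authors' deposited table it had a log fold change of 0.52 (recovered standard error 0.117, 95% interval 0.12 to 0.93), with a p of 0.0284 and an adjusted p of 0.114 from the limma-type test. The interval lay above 0. The rSBP15 and MT libraries could not overlap, which was so for 62.3% of all detected genes. Whether the reads came from the transgene or from the plant's own gene cannot be told from a table of genes. The other 6 SBP-box genes listed, which encode transcription factors of the same family, all lay below 0, with a median log fold change of -0.45. At the adjusted threshold 1 of these 6 fell and 0 rose, where 2.94% of all detected genes fell. It was SBP6c, at -0.41 in the authors' deposited table (adjusted p 0.0332). At an unadjusted p under 0.05 there were 4 lower and 0 higher, where 16.2% of all were lower. The largest values in the authors' deposited table were -0.95 for SBP6a (adjusted p 0.0581) and -0.82 for SBP13 (adjusted p 0.0718), and CNR, known for fruit ripening, was at -0.24 (adjusted p 0.167). In miR156-OE all of these 6 genes were also below 0, with a median of -0.95. Both comparisons use the same MT samples.

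Of 6 listed branching genes, which start axillary buds, hold them at rest or pattern leaves, 3 fell (GOB, LS and LA) and 0 rose, where 2.94% of all detected genes fell. All 6 values were below 0, with a median of -0.37 against 0.000527 over all detected genes. GOBLET (GOB), a boundary gene of the NAC family, was listed at -1.13 in the authors' deposited table (95% interval -1.26 to -0.99, adjusted p 0.0314). LANCEOLATE (LA), a TCP gene that promotes the end of leaf growth and is known as a target of miR319, was at -1.01 in the authors' deposited table (95% interval -1.18 to -0.85, adjusted p 0.0372), beside 0.01 in miR156-OE with an adjusted p of 0.989. LATERAL SUPPRESSOR (LS), a GRAS gene needed to start side shoots, fell by only 0.17 in the authors' deposited table, and its adjusted p of 0.0237 went with a standard error of 0.00311. BLIND (BL), a MYB gene with the same role, was at -0.31 in the authors' deposited table (adjusted p 0.0526). The bud repressors BRC1a and BRC1b were at -0.18 and -0.44 in the authors' deposited table, with 95% intervals of -0.38 to 0.02 and -0.96 to 0.09. Counting only names checked in RefSeq left 3 detected genes of this list, of which LS fell.

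Genes of the dividing cell lay below MT. Among 10 listed cell cycle genes, 2 fell and 0 rose at the adjusted threshold, where 2.94% of all detected genes fell, and at an unadjusted p under 0.05 there were 8 lower and 0 higher, where 16.2% of all were lower. The median log fold change was -0.75 in rSBP15 and 0.0652 in miR156-OE. CDKB2, a kinase specific to plant mitosis, fell in rSBP15, at -1.47 in the authors' deposited table (95% interval -1.67 to -1.26, adjusted p 0.0332). CYCD3;1, a D-type cyclin that takes cells into division, fell as well, at -0.92 in the authors' deposited table (95% interval -1.08 to -0.77, adjusted p 0.0373). Its relative CYCD3;3 had the lowest value of the list, -1.84 in the authors' deposited table (adjusted p 0.0547). The B-type kinase CDKB1 was at -0.89 in the authors' deposited table and missed the threshold at an adjusted p of 0.0503. The mitotic cyclins CYCB1;2 and CYCB2;1 were at -1.17 and -0.61 in the authors' deposited table, with adjusted p-values of 0.0718 and 0.0673, and WEE1, a kinase that restrains division, was at -0.40 (adjusted p 0.0598). The exceptions were CDKA1, a kinase present throughout the cycle, at 0.08, and CCS52A, an activator of cyclin breakdown that goes with endoreduplication, at 0.02 in the authors' deposited table. When the variance moderation was refitted without the genes at 0, 8 of the 10 were called lower. Of all 25329 detected genes 1904 were called lower in this way. The count depended on the names. KRP1, an inhibitor of cyclin-dependent kinases, was among the dropped IDs and stood at 0.73 in the authors' deposited table (adjusted p 0.0824), so that all listed IDs gave 8 lower and 1 higher of 11. With checked names alone 3 of 5 were lower at an unadjusted p under 0.05 and CDKB2 was the 1 that fell.

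Abscisic acid genes lay mostly above 0. Of 10 detected genes of its synthesis, breakdown and response, 1 rose and 0 fell, where 2.65% of all detected genes rose. At an unadjusted p under 0.05 there were 7 higher and 0 lower, where 17.1% of all were higher. The gene that rose is a CYP707A gene of abscisic acid breakdown (Solyc04g071150.3), and its value of 0.05 in the authors' deposited table was small beside the 1.08 of NCED1, a gene for the limiting step of abscisic acid synthesis (adjusted p 0.0765). Its relative NCED2 was at -0.10 in the authors' deposited table (adjusted p 0.218) and was the 1 detected member below 0. CYP707A1 and CYP707A2 were at 0.21 and 0.00106 in the authors' deposited table (adjusted p 0.602 and 0.985). TAS14, a dehydrin that abscisic acid and drought induce, had the highest value of all listed genes, 3.31 in the authors' deposited table. Its 95% interval was 1.21 to 5.41 and its adjusted p 0.0945. For miR156-OE, TAS14 was at -0.11 and NCED1 at -0.63 in the authors' deposited table, with adjusted p-values of 0.958 and 0.318. Further synthesis genes, ZEP and FLACCA (FLC), were at 0.56 and 0.34 in the authors' deposited table. The response factors AREB1 and AREB2 were at 1.00 and 0.49 there. The adjusted p-values of all these lay between 0.0694 and 0.128. After the moderation was refitted, 4 of the 10 were called, all higher, where 1807 of all 25329 detected genes were called higher. The CYP707A gene was not among these 4, and its adjusted p became 0.119.

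Genes of the sugar list lay mostly above 0. They carry or split sucrose, except for the asparagine synthetase gene ASN1, which is counted among them. Of 11 detected members of the sugar list, 3 rose and 0 fell, where 2.65% of all detected genes rose. At an unadjusted p under 0.05 there were 7 higher and 2 lower, where 17.1% of all were higher and 16.2% lower. With the adjustment over all rows, or with no moderation, 0 of the 11 passed. SUS1, a sucrose synthase, rose by 1.26 in the authors' deposited table (95% interval 0.96 to 1.57, adjusted p 0.0452). SUT1, the carrier that loads sucrose into the phloem, rose by 0.97 (95% interval 0.80 to 1.15, adjusted p 0.0386), and the vacuolar invertase TIV1 by 0.62 (95% interval 0.45 to 0.79, adjusted p 0.0493) in the authors' deposited table. SUS3 and SUS4 were at 1.40 and 0.55 in the authors' deposited table, with adjusted p-values of 0.0670 and 0.0977. ASN1, an asparagine synthetase whose relatives are known to rise in sugar-starved and resting tissue, was at 2.05 (95% interval 0.71 to 3.39, adjusted p 0.0974), beside -0.33 in miR156-OE in the authors' deposited tables. The 2 members below 0 were the cell wall invertases LIN6 and LIN7, at -0.26 and -0.20 in the authors' deposited table, with adjusted p-values of 0.125 and 0.102.

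**Figure D3:**
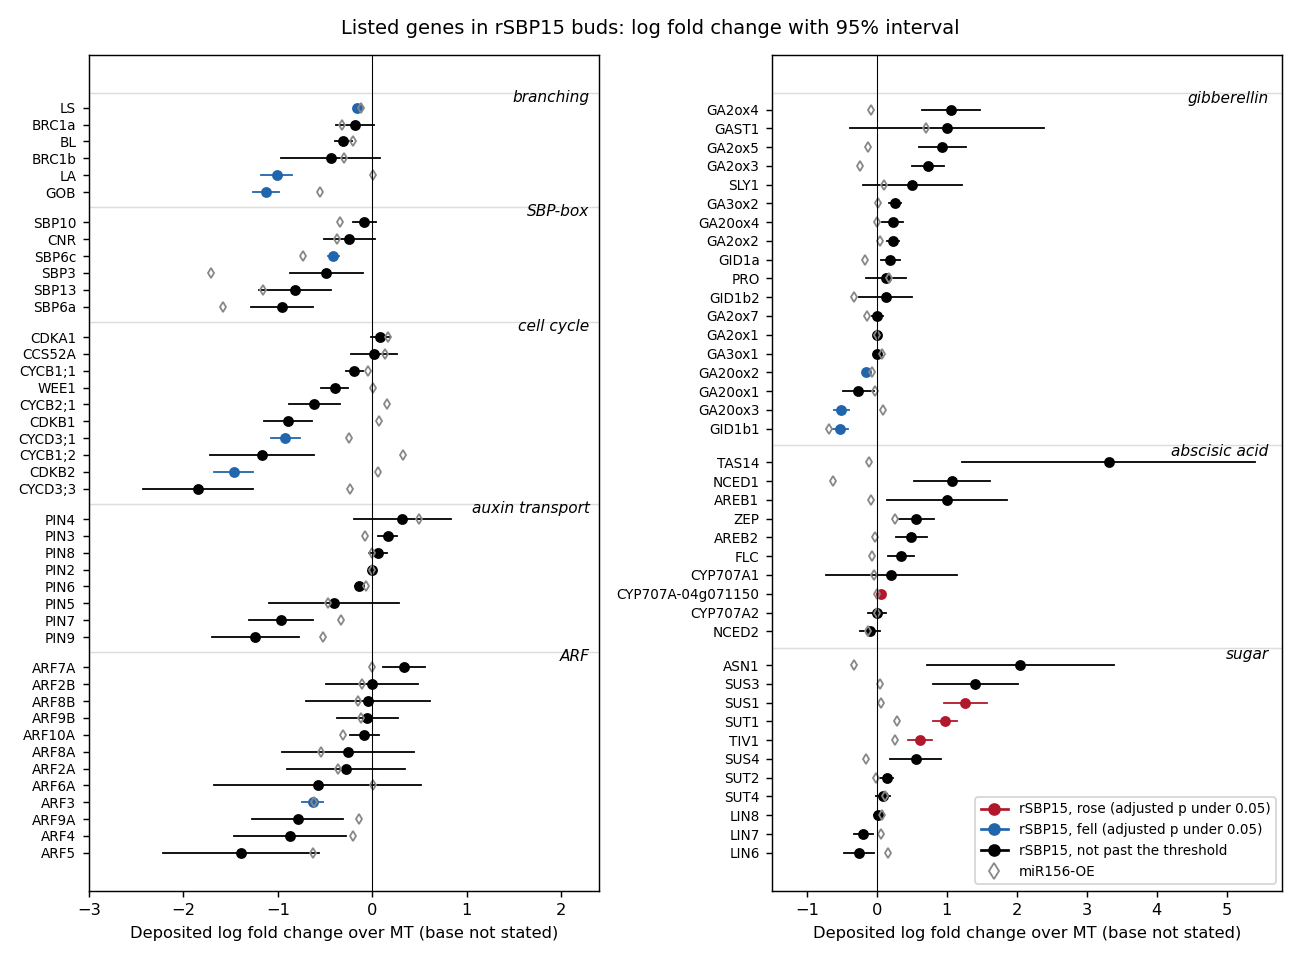
Circles give the deposited log fold change of rSBP15 over MT (base not stated) for detected members of 8 gene lists, with 95% intervals as bars; red circles rose, blue circles fell and black ones did not pass the threshold. Grey diamonds give the deposited log fold change of miR156-OE over the same MT samples. Most cell cycle circles lie left of 0, down to -1.84 for CYCD3;3, and most abscisic acid and sugar circles lie right of 0.

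Gibberellin genes stood on both sides of 0. Of 18 detected genes 3 fell and 0 rose at the adjusted threshold, where 2.94% of all detected genes fell. At an unadjusted p under 0.05 there were 7 higher and 4 lower, where 17.1% of all were higher and 16.2% lower, so that the lower share was near that of all genes. GA20ox3 and GA20ox2, enzymes of gibberellin synthesis, fell by 0.51 and 0.16 in the authors' deposited table (adjusted p 0.0416 and 0.0227). GID1b1, a gibberellin receptor, fell by 0.52 in rSBP15 (adjusted p 0.0413), beside -0.69 in miR156-OE in the authors' deposited tables. The GA2ox enzymes inactivate gibberellin. GA2ox4, GA2ox5 and GA2ox3 were at 1.06, 0.93 and 0.73 in the authors' deposited table, and none passed, with adjusted p-values of 0.0626, 0.0597 and 0.0547. For miR156-OE the authors' deposited table gave these 3 genes -0.08, -0.13 and -0.24. GA20ox4 and GA3ox2, further synthesis genes, were at 0.22 and 0.26 in the authors' deposited table, with adjusted p-values of 0.0992 and 0.0561, so that synthesis genes stood on both sides of 0. The DELLA repressor PROCERA (PRO) was at 0.13 in the authors' deposited table (95% interval -0.16 to 0.42). When the moderation was refitted 8 of the 18 were called, 5 higher and 3 lower, where 14.7% of all detected genes were called. The 3 genes that fell have unchecked names, and 0 of the 10 detected genes with checked names passed.

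Auxin genes had few calls and values on both sides of 0. Of 9 detected PIN genes, which export auxin from cells, 0 passed the adjusted threshold, with 4 lower and 1 higher at an unadjusted p under 0.05, where 16.2% of all detected genes were lower and 17.1% higher. PIN7 had the smallest p, at -0.96 in the authors' deposited table, and PIN9 the lowest value, at -1.24, and their adjusted p-values were 0.0586 and 0.0600. After refitting the moderation 3 of the 9 were called, all lower, where 1904 of all 25329 detected genes were called lower. Of 13 auxin response factors 2 passed, where 5.58% of all detected genes did, and values of 1 of them are not reported here. The other, ARF3, fell, at -0.63 in rSBP15 (adjusted p 0.0389) and -0.62 in miR156-OE in the authors' deposited tables. ARF5, known as MONOPTEROS for its part in organ and vein formation, was at -1.39 in the authors' deposited table (adjusted p 0.0883). Of 19 Aux/IAA genes, whose proteins repress the response factors, 1 passed, a share near the 5.58% of all detected genes. IAA29 rose by 0.18 in the authors' deposited table (adjusted p 0.0418). At an unadjusted p under 0.05 there were 6 higher and 2 lower of these 19. IAA17, which was taken up after its value was seen and is not among the 19, was at 2.61 in the authors' deposited table (95% interval 1.56 to 3.67, adjusted p 0.0636). FZY1, a YUCCA-type gene of auxin synthesis, was at -0.35 in the authors' deposited table (adjusted p 0.0627), and 0 of the 4 detected genes of this kind passed.

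The remaining hormone lists had from 0 to 2 calls each, where 5.58% of all detected genes were called. In the cytokinin list 1 of 11 detected genes rose, the type-A response regulator Solyc10g079600.2, at 0.33 in rSBP15 (adjusted p 0.0263) and 0.70 in miR156-OE in the authors' deposited tables. Another regulator of this type, Solyc03g113720.3, was at -0.49 in the authors' deposited table (adjusted p 0.0602). Among 16 ethylene genes the receptor gene ETR5 rose by 0.34 in the authors' deposited table (adjusted p 0.0263) and the receptor gene ETR6 fell by 0.09 (adjusted p 0.0418), a call that the refitted moderation ended (adjusted p 0.0625). Of 5 brassinosteroid genes 0 passed, and 3 were lower at an unadjusted p under 0.05, where 16.2% of all detected genes were lower. These 3 encode synthesis enzymes, DWARF at -0.73, DPY at -0.65 and CYP90B3 at -0.17 in the authors' deposited table, with adjusted p-values of 0.0855, 0.0564 and 0.0609. Of 6 strigolactone genes 4 were detected and 0 passed. MAX1, a late synthesis enzyme, was at 0.39 in the authors' deposited table (adjusted p 0.0570), while the synthesis genes CCD7 and D27 were listed at 0.

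**Figure D4:**
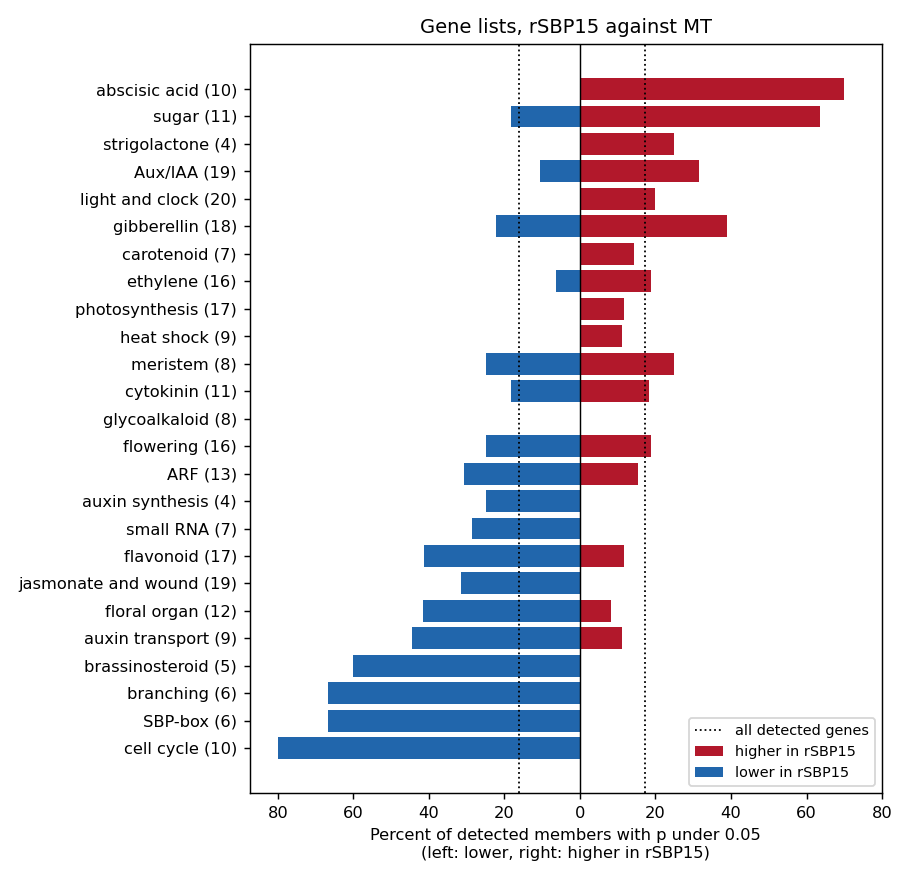
For each gene list of at least 4 detected genes, with its number of detected members in parentheses, bars give the percent of members with a deposited p under 0.05 that were higher (right, red) or lower (left, blue) in rSBP15 than in MT. Dotted lines mark all detected genes, at 17.1% higher and 16.2% lower. The cell cycle list reaches furthest to the left, with 8 of 10 members, and the abscisic acid list furthest to the right, with 7 of 10.

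No listed meristem or flowering gene passed the threshold. Of 8 meristem genes 0 passed. There were 2 higher and 2 lower at an unadjusted p under 0.05, where 17.1% of all detected genes were higher and 16.2% lower. The KNOX homeobox genes TKN4 and TKN3 were at 0.67 and 0.70 in the authors' deposited table (adjusted p 0.0524 and 0.111). WUS, which marks the organising centre of the meristem, and CLV3, the peptide signal of its stem cells, were detected, at -0.19 and -0.20 in the authors' deposited table (adjusted p 0.0961 and 0.129). Of 16 detected flowering genes 0 passed. ANANTHA (AN), an F-box gene of floral identity, was at -0.90 in rSBP15 and -0.87 in miR156-OE in the authors' deposited tables, with adjusted p-values of 0.0586 and 0.213. The FRUITFULL-type genes FUL1 and FUL2, which promote flowering, had opposite signs in the lines, at 0.54 and 0.55 in rSBP15 and at -0.58 and -0.64 in miR156-OE in the authors' deposited tables, with adjusted p-values of 0.142 and 0.0916 in rSBP15 and 0.294 and 0.250 in miR156-OE. SP6A and SP5G, of the florigen family, were listed at 0.

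Floral organ MADS genes lay below 0 in both lines without passing the threshold. Of 12 detected, 11 were below 0 in rSBP15, with a median of -0.71 in rSBP15 and -0.90 in miR156-OE, and 0 passed in either. LIN, a SEPALLATA-type gene, had the smallest p of the list, at -0.22 in the authors' deposited table (adjusted p 0.0578). The petal and stamen gene TAP3 was at -1.24 in rSBP15 and -1.33 in miR156-OE in the authors' deposited tables, with recovered standard errors of 0.373 and 0.376. GLO1, its partner, stood at -1.12 in rSBP15 and -1.14 in miR156-OE in the authors' deposited tables, with a standard error of 0.406 in both. Both comparisons share the MT libraries, and whether 1 MT library carried this spread cannot be read from the tables and was not tested.

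Green tissue genes lay mostly above 0, and flavonoid genes on both sides. Of 17 genes for light-harvesting proteins and the small subunit of Rubisco, 16 lay above 0 and 0 passed. The median was 0.38 in rSBP15 and 0.70 in miR156-OE. At an unadjusted p under 0.05 there were 2 higher and 0 lower in rSBP15, where 17.1% of all detected genes were higher. In miR156-OE 8 of the 17 had an unadjusted p under 0.05, where 13.2% of all did, and 0 passed. In rSBP15 the small subunit gene Solyc02g085950.4 had the smallest p of the 17, at 0.78 in the authors' deposited table (adjusted p 0.0962). Of 20 light and clock genes 1 passed, a share near the 5.58% of all detected genes. It was PIF4, a factor through which shade and warmth promote elongation, which rose by 0.62 in the authors' deposited table (95% interval 0.52 to 0.72, adjusted p 0.0370). At an unadjusted p under 0.05 the list had 4 higher and 0 lower, where 17.1% of all were higher and 16.2% lower. Of 17 flavonoid genes 1 passed, a share near the 5.58% of all detected genes, and at an unadjusted p under 0.05 there were 2 higher and 7 lower, where 16.2% of all were lower. DFR, ANS and AE, which make and move anthocyanins, were at -0.79, -0.70 and -0.88 in rSBP15 in the authors' deposited table, with adjusted p-values of 0.0613, 0.0513 and 0.0687. Chalcone synthase, the first enzyme of the path, has a pair of listed genes, with CHS2 at 1.30 and CHS1 at -0.35 in the authors' deposited table (adjusted p 0.0792 and 0.469). The gene that passed was ANT1, a MYB factor, at -0.03 in the authors' deposited table (standard error 4.13e-05), and it was lost when the moderation was refitted (adjusted p 0.228).

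Polyphenol oxidase genes of chromosome 8 had the lowest values of all listed genes. These enzymes brown wounded tissue and their genes stand in a cluster. Solyc08g074630.2 fell by 2.60 in the authors' deposited table (95% interval -2.92 to -2.29, adjusted p 0.0313), beside -1.27 in miR156-OE with an adjusted p of 0.232. Solyc08g074620.3 fell by 2.18 in rSBP15 (95% interval -2.66 to -1.69, adjusted p 0.0427), beside -0.04 in miR156-OE in the authors' deposited tables. A further gene of the cluster, Solyc08g074683.1, was taken up after its value was seen and fell as well, at -1.91 in the authors' deposited table (adjusted p 0.0493). The remaining listed one, Solyc08g074680.3, was at -0.10 in the authors' deposited table (adjusted p 0.123). Sequences of these genes were not compared. If they are close copies, reads may have been split between them, and single values are uncertain. The list of 19 jasmonate and wound genes, counted without the gene added later, had 3 that fell and 0 that rose, where 2.94% of all detected genes fell and 2.65% rose. The one that is no oxidase gene was JAZ2, a repressor of jasmonate response, at -0.75 in the authors' deposited table (adjusted p 0.0373). The jasmonate synthesis genes LOXD and AOS2 were at -0.67 and 0.62 in the authors' deposited table, with adjusted p-values of 0.162 and 0.151.

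Over the whole table, 25 genes passed 0.05 with the deposited p-values, with the moderation refitted and with no moderation, 10 higher and 15 lower in rSBP15. The largest rises among those without a name here were of Solyc03g112210.1, by 1.91 in the authors' deposited table (95% interval 1.86 to 1.95, adjusted p 0.0184), and of Solyc04g079470.3, by 0.90 (95% interval 0.88 to 0.92, adjusted p 0.0168). The largest falls were of Solyc09g061280.4, at -1.35 in the authors' deposited table (95% interval -1.39 to -1.31, adjusted p 0.0184), and of Solyc02g030460.2, at -1.19 (95% interval -1.22 to -1.15, adjusted p 0.0184). Passing with no moderation calls for a small standard error, and those of these genes ran from 0.00452 to 0.0127. The medians were 0.0495 over detected genes that were higher and 0.0534 over those that were lower. Among all called genes the size reached 4.59 for rises and 2.97 for falls. For miR156-OE the authors' deposited table gave 0.13 for Solyc03g112210.1, 0.06 for Solyc04g079470.3, -0.63 for Solyc09g061280.4 and -0.82 for Solyc02g030460.2. No name is given to these IDs here.

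Some genes were detected in rSBP15 alone. A log fold change above 0 in rSBP15 and of 0 in miR156-OE was found for 737 genes, while 328 were detected in miR156-OE alone and 402 in MT alone. For such genes the 2 library values follow from the log fold change and the standard error, though not which library is which. Of the 737 genes, 526 matched a signal in 1 rSBP15 library and 211 (28.6%) in both, against 12.2% in both for miR156-OE and 16.9% for MT. Levels were low, with a median of 0.00459 on the deposited log scale, and 20 of the 737 reached 0.1. The highest level shared by both rSBP15 libraries was that of a gene on chromosome 1, with libraries at 0.772 and 0.724 and an adjusted p of 0.0307. Among genes seen in 1 rSBP15 library, 2 that are not placed on a chromosome stood far above the rest, at 4.59 and 4.32 in that library and 0 in every other, with an adjusted p of 0.517 for both. The number of genes seen depends on sequencing depth, which is unknown.

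The called genes were spread over the genome. By the chromosome number in the gene ID, between 4.61% (chromosome 9) and 6.70% (chromosome 5) of the detected genes were called on chromosomes 1 to 12, and 0.405% of the 247 genes not placed on one. Falls made up 2.48% to 3.26% of each of the 12 chromosomes and rises 1.66% to 3.77%. In 1006 windows of 25 neighbouring detected IDs the highest number of calls was 7 and 259 windows (25.7%) had 0. Window medians of the log fold change stayed between -0.18 and 0.20. No test was made of these counts.

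**Figure D5:**
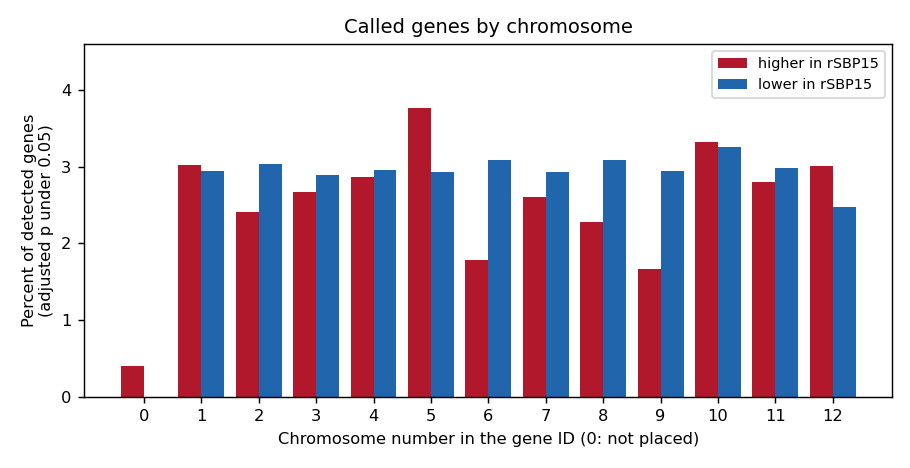
Bars give the percent of detected genes on each chromosome (number in the gene ID, 0 for genes not placed) that rose (red, left) or fell (blue, right) in rSBP15 at an adjusted p under 0.05. Falls stay between 2.48% and 3.26% on chromosomes 1 to 12, and rises range from 1.66% on chromosome 9 to 3.77% on chromosome 5.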

How the data were processed

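RNA of pooled buds was poly(A)-selected and made into strand-specific TruSeq libraries, per the labels' protocols. HISAT2 and StringTie are named in the submitters' processing notes. Their versions, the genome build, the expression unit and the test are not given in the sources used here. Samples were grouped by title. Per the file headers, each of the 34075 IDs has a log fold change with its p-value, deposited by the authors. Depth is unknown.

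Benjamini-Hochberg adjustment of these p-values ran over the 25329 genes not at 0, with a threshold of 0.05. They were matched by limma's moderated test (limma 3.58.1, R 4.3.3) of 2 libraries against 2: 1262 genes lay within 1e-06 in p of the curve for a signal in 1 of 4 libraries, for a prior of 0.360 degrees of freedom with variance 1.92e-06, and limma's own estimate over all rows returned both values. The residual SD recovered from this fit is the standard error given, and 95% intervals use the moderated variance. The recovery was tested on simulated data. A count test, planned only if counts per library were found, was not run.

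Names come from knowledge of published locus IDs. Of 308 listed IDs, 199 had their name among RefSeq symbols of the assembly SLM_r2.1, and 191 of these lay on the same chromosome in the same order. The other 8 were dropped, under a rule whose limit on order was set after list values were seen, and 109 were unchecked. Of the 300 kept, 4 were not among the table's IDs. Each list names its called genes, up to 4 a direction, or its gene of smallest p; other genes were chosen after their values were seen. Values of 2 listed genes are not reported here. The members and lists were chosen with earlier results of these data known. Alternatives changed the adjustment, moderation, threshold, detection and names.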

Additional observations from a re-analysis of the deposited data

How the results depend on the processing

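The number of genes past the threshold, 1414 (670 higher and 744 lower), depended on the test. It was 544 (245 and 299) with the adjustment over all rows, 3711 (1807 and 1904) with the moderation refitted without genes at 0, 43 (22 and 21) with no moderation, 2 (1 and 1) at an adjusted p under 0.01 and 175 (78 and 97) at a size of at least 1. It was 8435 (4336 and 4099) at an unadjusted p under 0.05, an alternative chosen after seeing the data. Without genes detected in 1 library it was 1569 (743 and 826). Of the 1414 genes, 1240 also passed with the moderation refitted. Directions cannot change under these settings, since each alters the test alone. Of 42 named genes, 13 lost their call with the adjustment over all rows, 22 with no moderation and 28 at an adjusted p under 0.01, while the refitted moderation ended the call of 3 and gave 9 more. Over these settings the adjusted p ranged from 0.0198 to 0.0926 for CDKB2, from 0.0184 to 0.0914 for GOB, from 0.0222 to 0.107 for SUS1, from 0.0184 to 0.0911 for the polyphenol oxidase gene Solyc08g074630.2 and from 0.0688 to 0.186 for SBP15. Further settings chosen after seeing the data changed which names were trusted. With every listed ID kept, no list's number of calls at the adjusted threshold changed. With checked names alone the calls were 1 lower of 3 branching genes, 1 lower of 5 cell cycle genes, 3 higher of 10 sugar genes, 1 lower of 13 jasmonate and wound genes and 0 of 10 gibberellin genes, with 0 in the SBP-box, abscisic acid, cytokinin and light and clock lists. No paired analysis was possible because values of single libraries were not used here, and for the same reason no library was left out and no other normalization was tried. Depth is unknown, so what it limits could not be given.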

Other observations

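Further lists were without a call in rSBP15. Of 8 glycoalkaloid genes, which make the bitter steroidal compounds of tomato, 0 passed. An unadjusted p under 0.05 was found for 0 of the 8, where 33.3% of all detected genes had one. GAME1 had the smallest p, at -0.78 in the authors' deposited table (adjusted p 0.160). Of 7 carotenoid genes 0 passed, and the phytoene synthase gene PSY2 was at 0.27 in the authors' deposited table (adjusted p 0.0673). Of 9 heat shock genes 8 lay above 0 and 0 passed, and the small heat shock protein gene Solyc06g076570.4 was at 1.13 in the authors' deposited table (adjusted p 0.131). Among 7 genes of the small RNA machinery 0 passed, and SGS3, which helps make trans-acting small RNAs, was at -0.32 in the authors' deposited table (adjusted p 0.0768). RDR1, an RNA polymerase of antiviral silencing, was at 0.06 in rSBP15 and -1.07 in miR156-OE in the authors' deposited tables, with adjusted p-values of 0.718 and 0.217. Of the 2 detected pathogenesis-related genes 0 passed, and the osmotin-type gene NP24 was at 0.58 in the authors' deposited table (adjusted p 0.477).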
